A study of Mus musculus with 4 samples.

Results

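The imprinted Dlk1-Meg3 domain of mouse chromosome 12 was examined in lung mesenchymal cells of mice with a conditional knockout of Dnmt1, the enzyme that copies DNA methylation to the new strand after replication. Its members were the rows of the count table named Dlk1, Meg3, Rtl1, Rian, Mirg and Dio3, which are 6 of the 31247 genes with reads. Lungs of mice at postnatal day 7 were dissociated and cells positive for a Pdgfrb-GFP reporter were sorted, with 300000 to 350000 cells per sample, and the labels call them myofibroblasts. The 2 knockout (CKO) samples carried PDGFRb-GFP, Tbx4-rtTA, Tet-O-Cre and Dnmt1-D/D, so that Cre depended on a transactivator placed under Tbx4, a gene of lung mesenchyme. The 2 wild-type (WT) samples carried PDGFRb-GFP, and the labels do not say whether they also carried a transactivator or Cre, which agent induced Cre, or when. The labels name 2 lungs per genotype without stating a litter or a pool, and the p-values below thus reflect only how these libraries vary. Libraries are named by genotype and a letter in column order.

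In this domain the protein-coding genes Dlk1, Rtl1 and Dio3 are transcribed from the chromosome inherited from the father, and the non-coding RNAs Meg3, Rian and Mirg from the one inherited from the mother. The pattern is set by a control region between Dlk1 and Meg3 that carries DNA methylation on the paternal chromosome, and the promoter of Meg3 gains paternal methylation after implantation. Dlk1 and Meg3 are known in the mouse as genes of fetal and growing tissues. The files give reads per gene without the parental allele and without methylation, so a level here is the sum over both chromosomes. In a bulk sample fewer expressing cells and less RNA per cell cannot be told apart.

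The domain as bounded by the members ran from the start of Dlk1 to the end of Dio3 (GRCm38, chromosome 12, 109452823 to 110281097), a span of 828 kb. On the plus strand stood Dlk1 (109452823 to 109463336), Meg3 (109541001 to 109571726), Rian (109603940 to 109661716), Mirg (109729764 to 109749460) and Dio3 (110279068 to 110281097), and Rtl1 lay on the minus strand (109589193 to 109600330). The windows from 250 bases before to 50 bases after the RefSeq start of Meg3 and of Dlk1 (GRCm38.p6, plus strand) are shown because CG dinucleotides, in capitals, are the bases on which Dnmt1 acts.
Meg3, chr12:109540746-109541045: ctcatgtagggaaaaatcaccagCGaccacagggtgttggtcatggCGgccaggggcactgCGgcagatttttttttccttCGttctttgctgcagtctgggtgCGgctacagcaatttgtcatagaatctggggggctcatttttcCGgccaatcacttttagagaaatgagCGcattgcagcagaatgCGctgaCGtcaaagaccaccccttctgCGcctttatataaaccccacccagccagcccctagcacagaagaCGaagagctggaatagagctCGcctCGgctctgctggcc
Dlk1, chr12:109452573-109452872: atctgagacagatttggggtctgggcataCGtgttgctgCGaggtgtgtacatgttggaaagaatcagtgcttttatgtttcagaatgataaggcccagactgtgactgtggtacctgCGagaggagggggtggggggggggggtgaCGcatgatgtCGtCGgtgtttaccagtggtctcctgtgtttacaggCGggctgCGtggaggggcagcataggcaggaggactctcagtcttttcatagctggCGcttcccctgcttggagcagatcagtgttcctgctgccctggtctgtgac
The Meg3 window held 13 CG dinucleotides, a number reached by 37.9% of 32851 promoter windows of 300 bases, and the Dlk1 window held 9, reached by 45.8%. Those of Dio3, Mirg and Rian held 25, 10 and 0, and the median over all windows was 7. RefSeq lists another Meg3 start further downstream, whose window (109545148 to 109545447) held 1 CG. The Meg3 window shown also contained TGACGTCA, the palindromic cyclic AMP response element, which 1.79% of windows hold, and neither that other Meg3 window nor the other members' windows did.

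Rtl1 is overlapped on the opposite strand by a maternally transcribed RNA whose hairpins yield microRNAs. RefSeq places 11 mature microRNAs from 6 hairpins inside the Rtl1 gene on the plus strand, and each matches the Rtl1 transcript without a mismatch over its whole length. Mature sequences of 5 of them are shown, with the seed (bases 2 to 8) in capitals, because reads of this RNA and of Rtl1 come from the same stretch of chromosome and the use of strand in counting is not given in the sources used here.
miR-431-5p: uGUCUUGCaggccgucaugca
miR-433-3p: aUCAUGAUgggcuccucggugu
miR-127-3p: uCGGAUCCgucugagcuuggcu
miR-434-3p: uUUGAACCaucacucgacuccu
miR-136-5p: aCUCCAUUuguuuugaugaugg
The site of miR-127-3p in the Rtl1 transcript reads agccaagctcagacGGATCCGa, with the bases that pair with the seed in capitals. The 5 seeds differ from each other. None of the 6 hairpin genes had a row in the table, and the values of Rtl1 below may hold reads of either strand.

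Depth ranged from 23071657 to 26420648 counted reads, and 15210 genes were tested with edgeR's quasi-likelihood test. Replicates differed by more than sampling noise in both genotypes (chi-square per degree of freedom 35.9 for CKO and 20.2 for WT). Dnmt1 itself stood at 78.2 CPM (reads scaled to a common library size) in CKO A and 29.5 in CKO B, against 144 in WT A and 115 in WT B. CKO A thus kept 60.3% of the WT mean and CKO B 22.8%, and the change of Dnmt1 was not called (log2 change -1.27 ± 0.57 SE, n = 2 per genotype, edgeR adjusted p = 0.31). Reads were counted per gene, so RNA of deleted and of intact copies of Dnmt1 cannot be told apart. CKO A held 2494 reads of the Y-linked gene Ddx3y and the other libraries 0. Xist stood at 164 CPM in CKO A and 1081 in CKO B, against 849 in WT A and 671 in WT B. CKO A thus held reads of both genes. In WT B 27643 genes had at least 1 read, and in the other libraries 21883 to 22532 had. Mesenchymal markers were high in all 4 libraries, with Pdgfrb at 374 and 317 CPM in CKO and at 507 and 477 CPM in WT, and 0 of 10 such markers were called. Pdgfra (log2 change -0.60, edgeR adjusted p = 0.0526) and Pdgfrb (-0.51, edgeR adjusted p = 0.0546) were lower in both CKO libraries and just missed the threshold. The count of mesenchymal markers called was 5 with no filter (2 higher, 3 lower), 4 in DESeq2 (1 higher, 3 lower) and 2 with library size alone (both lower). Of the 10 changes 5 lay below 0, and Col1a1 had a log2 change of 0.58 (edgeR adjusted p = 0.193). The part of these marker differences in the levels of the members was not tested. The column names of CKO A, CKO B and WT B share a leading number that WT A does not have, and the labels do not say what it marks. Leaving out WT A therefore compares the 3 libraries that share it, and there the log2 changes were -0.92 for Meg3 (edgeR adjusted p = 0.521), 1.09 for Dlk1 (edgeR adjusted p = 0.0211) and -1.32 for Rtl1 (edgeR adjusted p = 0.236).

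None of the 5 tested members was called between CKO and WT. Of all tested genes 7.61% were called (edgeR adjusted p under 0.05, 1157 of 15210), and 5 genes are too few to differ from that share. Meg3 and Rtl1 were the members whose CKO libraries both lay below both WT libraries, and such a gap between the groups was found for 57.1% of tested genes (29.3% with both CKO libraries below and 27.7% with both above). Rian and Mirg differed little between the genotypes, and Dlk1 varied more within WT than between the group means. At an unadjusted p under 0.05 the count was 1 of 5 members (Rtl1), against 25.2% of tested genes (12.1% lower in CKO). The log2 changes of 3 tested members lay below 0 and those of 2 above it, with a median of -0.17 against -0.01 over all tested genes.

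**Figure D1:**
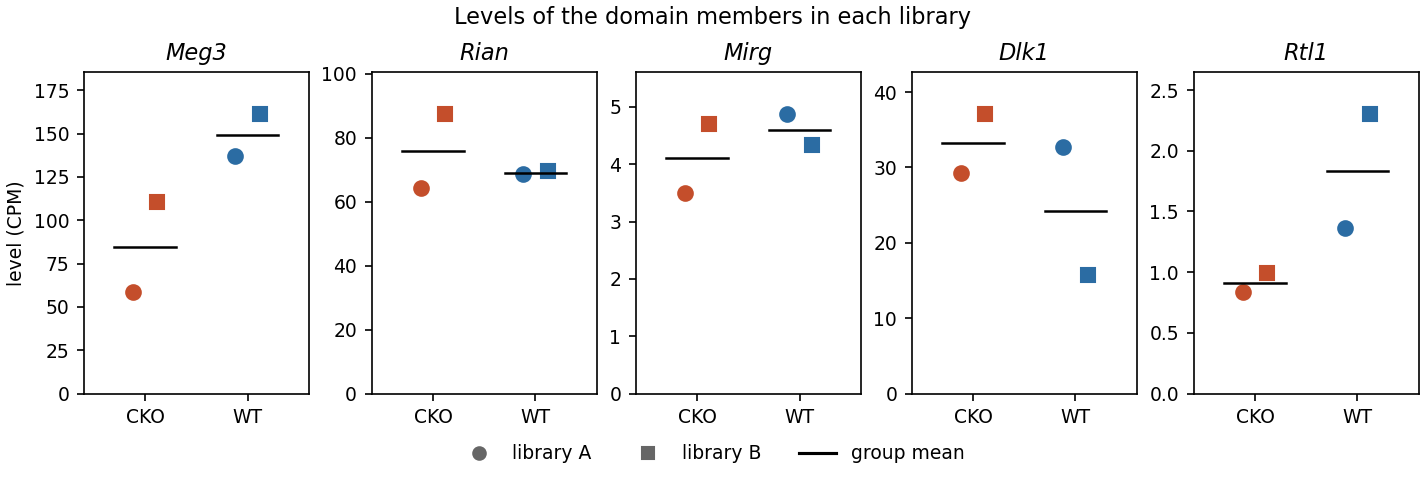
Level in CPM of each tested member in each library, on an axis of its own that starts at 0; circles are libraries A, squares libraries B and lines group means. Both CKO libraries lie below both WT libraries for Meg3 and Rtl1, and the groups overlap for Rian, Mirg and Dlk1.

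Among the maternally expressed RNAs, Meg3 had the highest mean level per kilobase and the largest difference between genotypes. This long non-coding RNA (ENSMUSG00000021268) was counted with 1542 reads in CKO A and 2557 in CKO B, and with 3125 in WT A and 4273 in WT B. Its level was 58.7 CPM in CKO A and 110 in CKO B, against 137 in WT A and 161 in WT B. CKO A was the lowest library and WT B the highest, and the groups did not overlap. The group means were 84.5 ± 36.5 CPM in CKO and 149 ± 17.0 CPM in WT (SD, n = 2 each). The log2 change of -0.82 ± 0.32 (SE) did not pass (edgeR adjusted p = 0.207), and its 95% interval of -1.66 to 0.02 corresponds to CKO levels between 0.316 and 1.01 times those of WT. The call depended on the libraries: without CKO B the change was -1.33 (edgeR adjusted p = 0.000951), without CKO A it was -0.41 (edgeR adjusted p = 0.109), and without WT A or WT B it was not called either. With no filter on low counts it was -0.78 and was called (edgeR adjusted p = 5.04e-05). For Meg3 the authors' deposited table lists -0.78 on the log2 scale with 0.0776 as its adjusted p, the lowest there for a member.

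Rian, a long transcript processed into C/D box small nucleolar RNAs, stood close to equal in both genotypes. Its level was 64.2 CPM in CKO A and 87.4 in CKO B, against 68.6 in WT A and 69.5 in WT B. The WT libraries lay between the CKO libraries. It differed by 0.13 ± 0.16 on the log2 scale (SE, n = 2 per genotype, edgeR adjusted p = 0.639), with a 95% interval of -0.22 to 0.49, or 0.856 to 1.41 times WT. Without CKO B its sign turned, to -0.09 (edgeR adjusted p = 0.698).

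Mirg, the most distal of these RNAs and host of a large microRNA cluster, was far less abundant. It had 92 reads in CKO A and 109 in CKO B, against 111 in WT A and 115 in WT B. In CPM it stood at 3.50 in CKO A and 4.70 in CKO B, against 4.87 in WT A and 4.34 in WT B, so that CKO B lay between the WT libraries. Its log2 change was -0.17 ± 0.26 (SE, n = 2 per genotype, edgeR adjusted p = 0.731), with a 95% interval of -0.76 to 0.42. Without CKO A it was 0.06 (edgeR adjusted p = 0.929), so that no direction can be given.

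Among the paternally expressed genes, Dlk1 had the highest level per kilobase, and its difference between genotypes rested on WT B. Dlk1 encodes a transmembrane protein with EGF repeats, related to Notch ligands and known as an inhibitor of fat cell differentiation. It had 770 reads in CKO A and 859 in CKO B, against 744 in WT A and 417 in WT B. Its level was 29.3 CPM in CKO A and 37.1 in CKO B, against 32.7 in WT A and 15.7 in WT B. WT A lay between the CKO libraries and WT B was the lowest, 2.08-fold below WT A, and the CKO libraries differed by 1.26-fold. The log2 change of 0.46 ± 0.39 (SE, n = 2 per genotype) did not pass (edgeR adjusted p = 0.532), with a 95% interval of -0.58 to 1.5, or 0.667 to 2.83 times WT. Without WT A, the library that lacks the shared number, Dlk1 was called higher in CKO (log2 change 1.09), and without WT B the change was 0.03 (edgeR adjusted p = 0.961).

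Rtl1, a gene derived from a retrotransposon Gag-Pol element and known for its role in placenta and muscle, was detected at low levels. It had 22 reads in CKO A (exact Poisson 95% interval 13.8 to 33.3) and 23 in CKO B (14.6 to 34.5), against 31 in WT A (21.1 to 44.0) and 61 in WT B (46.7 to 78.4). These intervals cover counting error only, since PCR copies are not independent molecules. Both CKO libraries lay below both WT libraries, although the interval of WT A overlapped those of both CKO libraries, and WT B stood highest. In CPM the means were 0.915 ± 0.109 in CKO and 1.83 ± 0.665 in WT (SD, n = 2 each). The log2 change was -1.0 ± 0.43 (SE), with a 95% interval of -2.0 to -0.01 that is not adjusted for the number of genes (edgeR adjusted p = 0.195). Without WT B it was -0.56 (edgeR adjusted p = 0.709). Reads of the antisense RNA named above cannot be told apart from those of Rtl1.

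Dio3, the deiodinase that inactivates thyroid hormones, stayed below the floor of 3 reads in every library. It had 0 reads in CKO A and 2 in CKO B, and 0 in WT A and WT B, where 3 reads would correspond to 0.113 to 0.132 CPM in each library. It did not enter the test, and no fold is given. Its antisense neighbour Dio3os had 0 reads in CKO A and 4 in CKO B, and 0 in WT A and 1 in WT B.

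**Figure D2:**
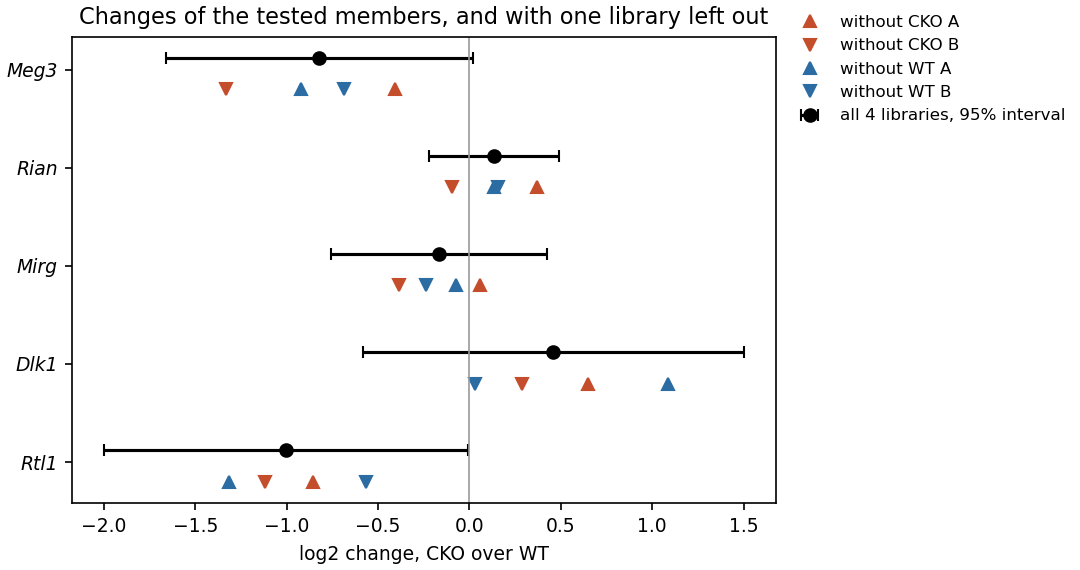
Log2 change of CKO over WT for the 5 tested members; black points with bars are estimates from all 4 libraries with unadjusted 95% intervals, and triangles give the estimate with 1 library left out. Meg3 and Rtl1 stay below 0 in each of the 4 reduced fits and Dlk1 above 0, while Rian and Mirg lie on either side of 0.

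All 5 tested members were lower in CKO A than in CKO B, as were 50% of all tested genes. Summed over the members, the level was 156.6 CPM in CKO A and 240.5 in CKO B, against 245 in WT A and 253 in WT B. CKO A thus stood apart from the other 3 libraries in this total, which is not set per kilobase. Meg3 made up much of the gap, at 58.7 CPM in CKO A, 110 in CKO B, 137 in WT A and 161 in WT B. Dlk1 in CKO A (29.3 CPM) lay between WT A (32.7) and WT B (15.7). CKO A is the CKO library with the higher Dnmt1 level and the one with Y-linked reads, and the part of either in these levels was not tested.

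Set per kilobase of merged exons, Meg3 had the highest mean over the 4 libraries (6.46 CPM per kb), followed by Dlk1 (5.07), Rian (3.97), Mirg (0.597) and Rtl1 (0.216). The ranges of Meg3 (3.25 to 8.91) and Dlk1 (2.78 to 6.55) overlapped, as did those of Dlk1 and Rian (3.52 to 4.79). Mirg (0.480 to 0.668) lay below Rian and above Rtl1 (0.132 to 0.362) without overlap. With merged exon lengths, the order of the upper pair differed between the CKO and WT libraries, narrowly so in CKO B. Per kilobase, Dlk1 lay above Meg3 in CKO A (5.18 and 3.25) and CKO B (6.55 and 6.10), and below it in WT A (5.77 and 7.59) and WT B (2.78 and 8.91). Meg3 reads per Dlk1 read were 2.0 in CKO A and 2.98 in CKO B, against 4.2 in WT A and 10.2 in WT B. Meg3 thus had more reads than Dlk1 in every library, and the order per kilobase depends on the lengths used. The merged exon lengths were taken from GENCODE M21, since the table's own length of 125128 bases for Rian exceeds the 57777 bases that the gene spans. The name of the deposited counts refers to a later GENCODE release, so the exons counted may differ from those measured here.

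Within a library, Meg3 reads per Rian read do not depend on how libraries are scaled, and this ratio, chosen after the levels were seen, was 0.914 in CKO A and 1.26 in CKO B, against 2.00 in WT A and 2.32 in WT B. Relative to Rian, Meg3 thus did not overlap between the genotypes and was lower in CKO. The difference of the mean log2 ratio was -1.0 (exact permutation test, two-sided, p = 0.333, the smallest that 2 against 2 libraries allow). Among all tested genes, 42.6% had groups that did not overlap when set relative to Rian, and 28.3% had both CKO libraries below both WT libraries. Meg3 reads per Mirg read were 16.8 in CKO A and 23.5 in CKO B, against 28.2 in WT A and 37.2 in WT B. Mirg reads per Rian read were 0.0545 in CKO A and 0.0538 in CKO B, against 0.0711 in WT A and 0.0625 in WT B. The mean log2 ratio differed by -0.71 for Meg3 per Mirg and by -0.30 for Mirg per Rian (exact permutation test, two-sided, p = 0.333 for each). Relative to Mirg, 41.3% of all tested genes had groups that did not overlap and 11.5% had both CKO libraries below both WT libraries. The 3 ratios are not separate results, since Meg3 per Rian is the product of the other two.

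The reads of Meg3, Rian and Mirg together, divided by those of Dlk1, Rtl1 and Dio3, were compared as a measure of the balance between maternally and paternally expressed RNAs. The ratio was 4.19 in CKO A and 5.31 in CKO B, against 6.19 in WT A and 13 in WT B. The CKO libraries lay below the WT libraries, with a difference of -0.93 in the mean log2 ratio (exact permutation test, two-sided, p = 0.333). How often all tested genes show such a gap relative to this divisor was not computed. WT B carried much of it: without WT B the difference was -0.39. With Dlk1 left out, the ratio was 151 in CKO A and 188 in CKO B, against 155 in WT A and 102 in WT B. The direction turned (0.42) and the groups overlapped (exact permutation test, two-sided, p = 0.667). The divisor was then Rtl1 with at most 2 reads of Dio3 in a library, and Rtl1 reads may include the antisense RNA. With Meg3 left out, the groups overlapped, at 2.25 in CKO A and 2.41 in CKO B, against 2.16 in WT A and 4.09 in WT B.

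**Figure D3:**
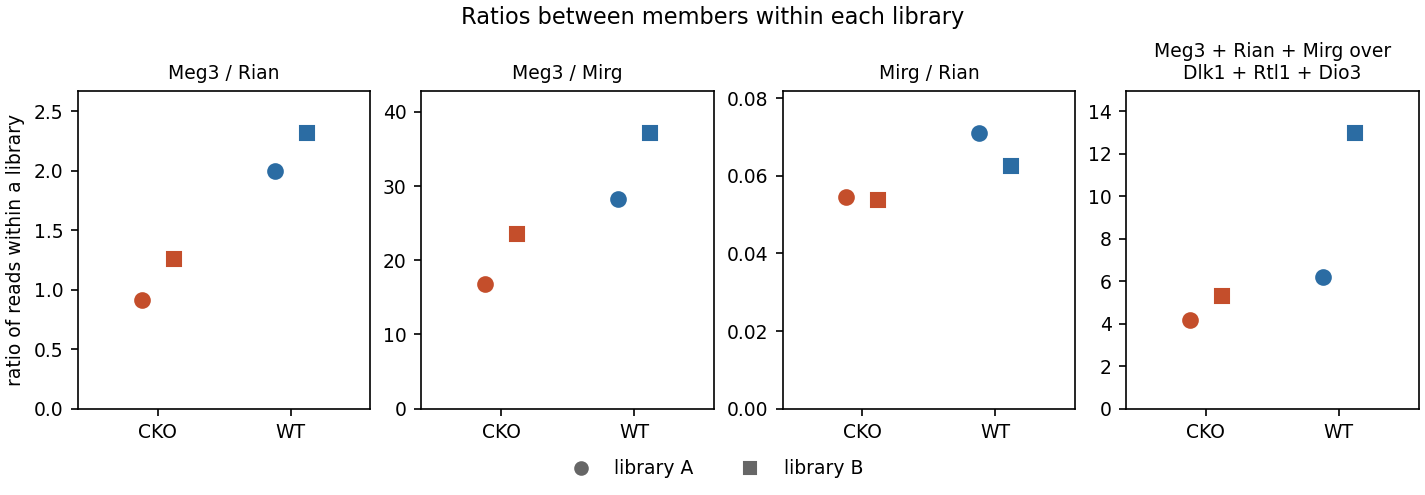
Ratios of reads between members in each library, with CKO left of WT; circles are libraries A and squares libraries B, and each axis starts at 0. Meg3 per Rian read lies at 0.914 and 1.26 in CKO, against 2.00 and 2.32 in WT, and the ratio of maternally to paternally expressed RNAs is highest in WT B, at 13.

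Between the outer ends of Dlk1 and Dio3 the annotation lists 118 genes, 67 of them microRNAs and 23 small nucleolar RNAs, and 30 had reads, the 6 members included. None of the other 24 passed the filter for testing. The 16 microRNA and small nucleolar RNA genes among them had at most 5 reads in any library. WT B had reads on 17 of the 24, against 6 in CKO A, 12 in CKO B and 4 in WT A. Over the whole table WT B likewise had reads on more genes, 27643 of 31247, against 21883 to 22532 in the other libraries. The non-coding gene B830012L14Rik, between Rian and Mirg, had 0 reads in CKO A and 1 in CKO B, against 3 in WT A and 58 in WT B. Gm37899, just beyond the end of Rian, had 0 reads in CKO A and 3 in CKO B, against 0 in WT A and 30 in WT B. In both, WT B alone held nearly all reads. WT B was also the library in which Rtl1 was highest and Dlk1 lowest, and a link between these was not tested. The pseudogene Gm3379 had 8 reads in CKO A and 8 in CKO B, against 4 in WT A and 6 in WT B.

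**Figure D4:**
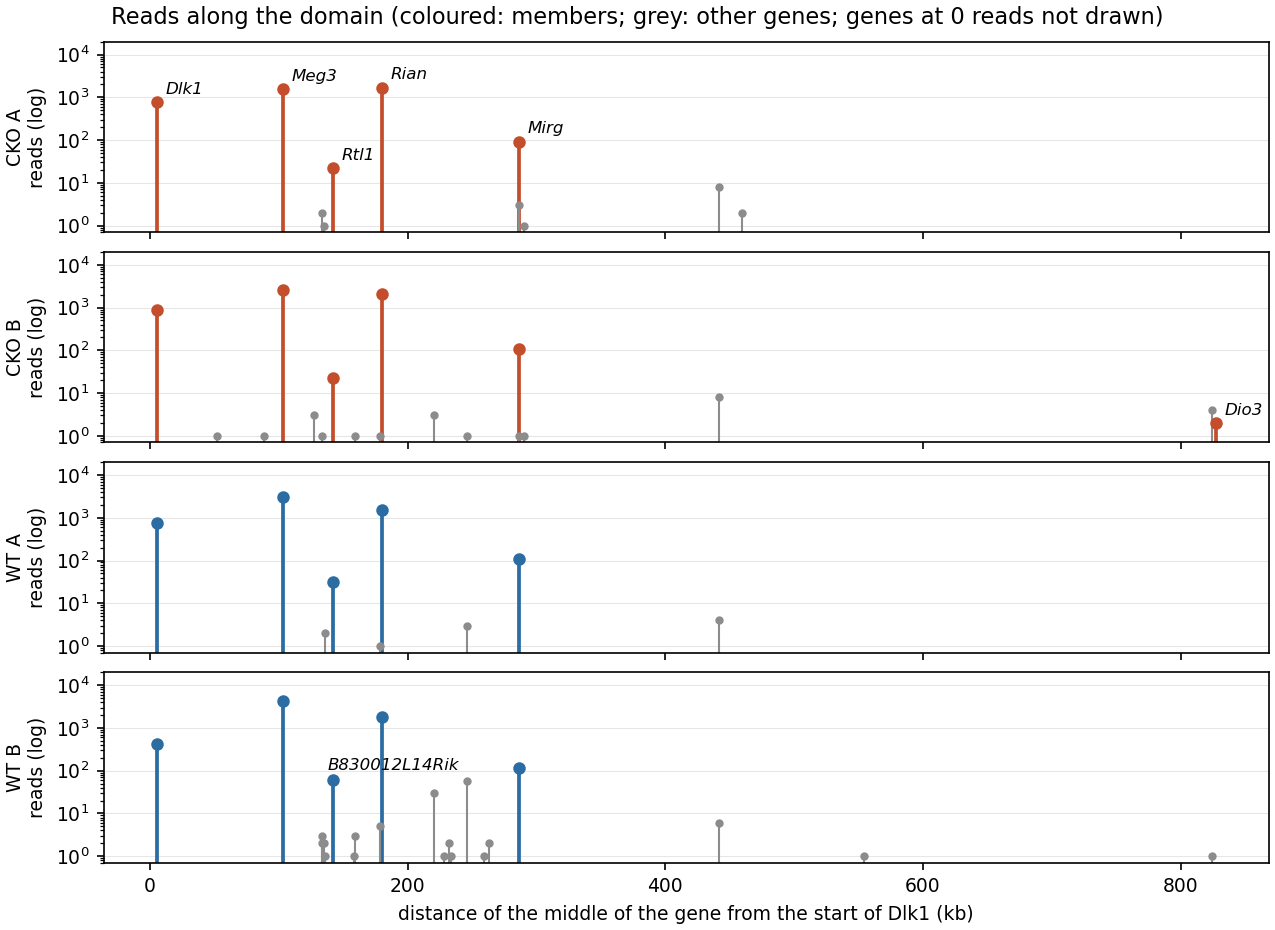
Reads per gene (log axis) along the domain in each library, with CKO above WT, placed by distance in kb from the start of Dlk1; coloured stems are members, grey stems other genes, and genes at 0 reads are not drawn. Meg3 and Rian have the tallest stems in every library (1542 reads at the least), and WT B shows grey stems between Rian and Mirg, with B830012L14Rik at 58 reads.

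Genes outside the imprinted domain on either side of it did not pass either. Of 17 flanking genes tested, 0 were called in the fit of all libraries and 0 in each of 11 other settings (1 of which, a mean CPM of at least 1, tested 16 of them), while 2 had an unadjusted p under 0.05, and the median log2 change was -0.01. Begain, the nearest protein-coding neighbour of Dlk1, stood at 6.05 CPM in CKO A and 6.38 in CKO B, against 5.27 in WT A and 5.73 in WT B. Ppp2r5c, a phosphatase subunit gene beyond Dio3, stood at 130 and 126 CPM in CKO, against 129 and 123 in WT. The lowest p of the list belonged to Degs2, a sphingolipid enzyme gene with a log2 change of -1.67 ± 0.60 (SE, edgeR adjusted p = 0.134).

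Of the factors known to act on imprinting control regions, Zfp57, a zinc finger protein that binds their methylated allele, fell in CKO. It stood at 27.2 CPM in CKO A and 23.4 in CKO B, against 45.9 in WT A and 47.2 in WT B (log2 change -0.88 ± 0.12 SE, edgeR adjusted p = 0.00778), and its call was lost without WT B (edgeR adjusted p = 0.0574). It was the 1 call among 16 tested factors, 0 of which were higher, where 4.85% of all tested genes were called higher and 2.75% lower. The count was 4, all lower, in DESeq2 and without CKO B, 4 (1 higher, 3 lower) with no filter, 3 with library size alone and without CKO A, and 0 without WT B. The median log2 change of the list was -0.23, and 14 of 16 changes lay below 0, as did 50.9% of those of all tested genes. The demethylase gene Tet1 had a log2 change of -0.70 (edgeR adjusted p = 0.0672) and Tet3 of -0.54 (edgeR adjusted p = 0.0952). Trim28, the corepressor bound by Zfp57, stood at 282 and 257 CPM in CKO, against 269 and 264 in WT, and Zfp445, another zinc finger protein of imprinting control regions, at 80.7 and 85.7 CPM in CKO, against 92.7 and 90.9 in WT.

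Among 35 tested imprinted genes of other chromosomal regions, 4 were called. Of all tested genes, 4.85% were called higher and 2.75% lower. Kcnq1ot1, an antisense RNA that silences its neighbours in cis, fell to 14.9 and 17.6 CPM in CKO, against 37.4 and 57.5 in WT (log2 change -1.55, edgeR adjusted p = 0.0135). Rasgrf1, a paternally expressed Ras exchange factor, had a log2 change of -3.13 (edgeR adjusted p = 0.0149) and the phosphatase gene Inpp5f one of -0.68 (edgeR adjusted p = 0.0206). Impact, a regulator of translation, was called higher (log2 change 0.59, edgeR adjusted p = 0.0449), a call lost in 7 of 11 alternatives, including RLE size factors (edgeR adjusted p = 0.0518). The share called was 1 higher and 3 lower of 35, and each of these 4 calls was lost without at least 1 library. The count was 10 (5 higher and 5 lower) with no filter and 7 (3 higher and 4 lower) in DESeq2. H19, the maternally expressed RNA next to Igf2, stood at 513 and 850 CPM in CKO, against 124 and 54.1 in WT, and did not pass (log2 change 2.93 ± 0.57 SE, edgeR adjusted p = 0.0803).

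The pathways in which members act were described from lists of their other genes. In the Notch pathway 1 of 20 tested genes rose, a share close to the 4.85% of all tested genes called higher. It was Lfng, a glycosyltransferase that modifies Notch receptors. Lfng stood at 32.4 and 32.7 CPM in CKO, against 17.5 and 13.3 in WT (log2 change 1.08, edgeR adjusted p = 0.00913), and the call was lost without WT B (edgeR adjusted p = 0.0601). Dlk2, the paralog of Dlk1, had 23 and 27 reads in CKO, against 6 and 5 in WT, and did not pass (log2 change 2.16 ± 0.56 SE, edgeR adjusted p = 0.0558). The count of higher genes was 5 with no filter, 4 without CKO A and 2 in DESeq2. Of 12 tested genes of fat cell differentiation 1 rose, the transcription factor gene Cebpb, at 157 and 190 CPM in CKO, against 86.6 and 71.3 in WT (log2 change 1.13, edgeR adjusted p = 0.00583). Without CKO A 3 genes were called. Pparg, the master regulator of fat cells, had 24 and 14 reads in CKO, against 13 and 14 in WT.

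In the thyroid hormone pathway 2 of 18 tested genes rose and 0 fell, where 4.85% of all tested genes were called higher and 2.75% lower. Slc7a5, a transporter of large neutral amino acids that also carries thyroid hormone, stood at 79.2 and 122 CPM in CKO, against 36.0 and 32.1 in WT (log2 change 1.56, edgeR adjusted p = 0.0116). Hr, a nuclear receptor corepressor, stood at 122 and 115 CPM in CKO, against 77.8 and 79.9 in WT (log2 change 0.59, edgeR adjusted p = 0.0194). Both calls were lost without WT B and that of Hr also without WT A, and without CKO A 4 genes were called. Dio2, the deiodinase that activates the hormone, had 137 and 245 reads in CKO, against 80 and 106 in WT, and did not pass (log2 change 1.07, edgeR adjusted p = 0.107). Of 11 tested genes of the Gag-like families to which Rtl1 belongs, 1 rose, Arc, which is also an immediate early gene, at 13.4 and 25.2 CPM in CKO, against 2.42 and 1.32 in WT (log2 change 3.38, edgeR adjusted p = 0.0135, lost without WT B).

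Markers of other cell types were set beside these values. Over all tested genes, 4.85% were called higher and 2.75% lower. Of 9 tested immune markers 4 were higher and 0 lower, and the sum of the 10 listed was 78.5 and 52.0 CPM in CKO, against 35.4 and 46.5 in WT, with none at 0 reads in any library. With either WT library left out, 1 immune marker (Cd74) was called. Of 5 tested red cell markers 2 were lower (Hba-a1 and Hba-a2, near-identical genes that can share reads), a count of 0 without CKO B or WT B, 1 without WT A, in limma-voom and with robust estimation off, and 4 without CKO A and with no filter. Their sums over the 6 listed were 14.1 and 7.42 CPM in CKO, against 22.8 and 30.2 in WT. None of 7 tested cartilage markers was called (1 lower without WT B, and 2 lower with no filter), and the sum of the 8 listed was 54.4 and 71.1 CPM in CKO, against 392 in WT A and 92.7 in WT B. Of 3 tested skeletal muscle markers 1 was higher, Myh3, at 0.875 and 1.12 CPM in CKO, against 0.132 and 0.113 in WT, and this call was lost with any 1 library left out; with a mean CPM of at least 1 it was not tested. Endothelial markers (0 of 10), epithelial markers (0 of 10), mesothelial markers (0 of 5) and neuroendocrine markers (0 of 1) were not called, except 1 epithelial marker without WT B. The part of these cell types in the levels of the members was not tested.

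The genes with the most similar pattern to each member were found among 11346 candidates by the root mean square difference of mean-centred log2 CPM over the 4 libraries. For Meg3 they were Cfp (0.052), Dbndd1 (0.054) and Arhgef39 (0.064), on chromosomes X, 8 and 4. Cfp, for example, stood at 3.35 CPM in CKO A and 6.04 in CKO B, against 7.82 in WT A and 9.81 in WT B. For Dlk1 they were Ednrb (0.077), Lacc1 (0.101) and Tenm3 (0.102), and for Rtl1 they were Izumo4 (0.050), Tnfsf13 (0.079) and Enpp5 (0.088). Ednrb, the endothelin receptor B gene, was at 54.4 and 68.4 CPM in CKO, against 56.6 in WT A and 31.7 in WT B, with the same low library as Dlk1. Within a difference of 0.1 lay 4 genes for Meg3, 1 for Dlk1 and 3 for Rtl1, against 308 for Rian and 471 for Mirg, whose nearest were Podn (0.018), Rbm15 (0.020) and Odf2l (0.024), and Kat6b (0.006), Zbed5 (0.015) and Cep135 (0.021). With 4 libraries such likeness is a description.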

How the data were processed

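RNA of sorted Pdgfrb-GFP positive lung cells was measured in 2 CKO and 2 WT samples. Per the file headers, the authors deposited raw counts of reads for each gene. The deposited table also holds the authors' log2 fold change, p-value and its adjusted form. Per the submitters' processing notes, which give no order, the build was GRCm38.p6 and the tools were STAR, edgeR 3.28.1, Trimmomatic 0.36, FastQC 0.11.8 and cutadapt 2.5. Which program counted reads, and whether by strand, is not given in the sources used here. Columns headed Mutant were taken as CKO and those headed Control as WT; none has a replicate number, and 3 (CKO A, CKO B and WT B) share a leading number. 4 further columns of per-sample values were not used, because the deposited gene length exceeds the span of the gene for 34.1% of genes.

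Counts were compared in R 4.3.3 with edgeR 4.0.16 (filterByExpr with a minimum count of 10, TMM, robust glmQLFit and glmQLFTest), with Benjamini-Hochberg adjustment over 15210 genes and a threshold of 0.05. CPM is the read count over the TMM-scaled library size, and 1 read was worth 0.0377 to 0.0439 CPM. Standard errors are the log2 change over the square root of F, and intervals use the degrees of freedom of that test. A floor is 3 reads. Intervals on counts are exact 95% Poisson intervals. Coordinates and merged exon lengths are from GENCODE M21, matched by identifier for 99.8% of genes, and promoter and microRNA sequences from RefSeq, which held a window for 5 of the 6 members. The fit was tested on simulated data. Alternatives were RLE size factors, limma-voom (limma 3.58.1), DESeq2 1.42.0, no filter, library size alone, a mean CPM of at least 1, robust estimation off, and each library left out.

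Named genes are the members, other genes of the domain with at least 10 reads, up to 4 tested genes with the lowest p per list, and the 3 nearest patterns per member. The following were named after seeing their values: Dio3os, Begain, Ppp2r5c, Trim28, Zfp445, Dio2, Pparg, H19, Ddx3y and Xist. The members and lists were chosen with earlier results of these data known. Counts over a list have no test of their own.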

Additional observations from a re-analysis of the deposited data

How the results depend on the processing

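No paired analysis was possible, because the labels name no pairs and the leading number is shared by both CKO libraries but only by WT B among the WT libraries. With 1 library left out at a time, the lone library of a genotype is assumed to vary like the others; the count of called genes then ran from 339 (without WT B) to 1842 (without CKO A), with 603 without WT A, against 1157. The count of called members ran from 0 to 1 in those fits. The log2 change of Meg3 ran from -1.33 to -0.41 (called without CKO B), that of Dlk1 from 0.0318 to 1.09 (called without WT A), that of Rtl1 from -1.32 to -0.56, that of Rian from -0.0931 without CKO B to 0.37, and that of Mirg from -0.38 to 0.0587 without CKO A. The difference in the log2 ratio of maternally to paternally expressed RNAs ran from -1.47 without WT A to -0.39 without WT B. With no filter on low counts 2459 genes and 1 member were called, Meg3 at -0.78 (edgeR adjusted p = 5.04e-05). With Dlk1 left out the ratio difference reversed, to 0.42, with overlapping groups and with Rtl1 as nearly all of the divisor. The cause of these shifts was not tested. Under RLE size factors, DESeq2, library size alone, limma-voom, a mean CPM of at least 1 and robust estimation off, no member was called, and each of the 5 tested members kept its sign. With no filter Dio3 had a fitted change of 3.22 (edgeR adjusted p = 0.723) from 2 reads, which depends on the prior count. The value of Rtl1 rests on 137 reads in all libraries together. The ratio of Meg3 per Rian read, its alternatives and those for gene lists were chosen after the data had been seen, and Meg3 per Rian read kept its sign in each, from -1.24 to -0.71.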
